A study of Mus musculus with 20 samples.

Results

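The 10 genes described here are the epidermal kallikreins Klk5, Klk6, Klk7, Klk8, Klk9, Klk10, Klk11, Klk13 and Klk14 and the inhibitor gene Spink5. They were picked by symbol from the 22090 genes of the count table, and all 10 were found. In cSCC, Klk7 and Spink5 were lower than in both NS and AK, and Klk10 and Klk13 were higher than in AK. The call of Klk7 against AK was lost in most fits that left out a single sample. The calls of Klk7 against NS and of Klk13 were lost in some alternative fits. Between AK and NS, no kallikrein and no inhibitor among the 10 passed the test. Within each cSCC, Klk10 and Klk13 together took a larger share of the kallikrein counts than in any NS or AK. This describes the same counts and is no separate test.

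Kallikreins are secreted serine proteases that are made as inactive precursors and activate one another in the outer epidermis. There they cut the proteins that hold dead cells together, so that the surface of the skin can be shed. Spink5 encodes LEKTI, a secreted inhibitor with many domains that keeps the skin kallikreins in check, and its loss causes Netherton syndrome, a disease of a leaky, peeling skin barrier. Both the proteases and LEKTI are products of the granular layer, where keratinocytes mature.

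RNA-seq was done on 20 skin tissues of female SKH-1 mice, an outbred hairless stock, aged 7 months on entry. The 8 mice were divided into 4 left unirradiated and 4 exposed to ultraviolet light, and tissue was taken at the end of the course, when they were older. The 8 normal skin (NS) samples hold a piece from each unirradiated mouse and a piece of unaffected skin from each irradiated mouse, and the labels do not say which is which. The 8 actinic keratosis (AK) samples, a sun-damage lesion that can precede cancer, and the 4 cutaneous squamous cell carcinoma (cSCC) samples came from the irradiated mice, with 2 AK and 1 cSCC per mouse. The mouse of each sample is not labelled, so samples that share a mouse entered the tests as separate samples, and the p-values measure only the spread between these tissues. Whole tissue was used, so fewer cells of a type and less RNA per cell cannot be told apart.

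Total counts were 1624325 to 6295575 in NS, 867219 to 14055206 in AK and 775750 to 7095102 in cSCC. Levels are in CPM, which sets a gene's counts against the total of its sample scaled with edgeR's TMM factors, and the 3 counts taken as the detection floor came to 0.225 to 3.78 CPM on that scale. Libraries in the cSCC group stood apart. Heart muscle markers summed to 54737 CPM in cSCC replicate 21, and lung markers to 35805 CPM in cSCC replicate 20. The TMM factor of cSCC replicate 18 was 0.5086, and the other 19 samples had 0.8522 to 1.216. The cSCC comparisons were fitted again with these samples left out. Basal keratinocyte markers were present in all 20 samples, at 3802 to 18046 CPM in sum. Suprabasal keratinocyte markers summed to 3683 to 13132 CPM in NS and 2130 to 11817 CPM in AK. In cSCC replicates 18, 19, 20 and 21 they summed to 1702, 281, 350 and 41 CPM.

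The 9 kallikrein genes lie side by side on the plus strand of chromosome 7, at chr7:43690418-43851181 in GRCm38, in the order Klk14, Klk13, Klk11, Klk10, Klk9, Klk8, Klk7, Klk6 and Klk5. Klk12, which is not among the 10, sits between Klk13 and Klk11. Spink5 lies on another chromosome. Klk8 shares 24.8% of its exon bases, and Klk14 22.6%, with genes annotated over them that were not analysed here, and the strand used in counting is not stated, so the counts of both are less certain. The 120 bases before the RefSeq start of 4 kallikrein genes (build GRCm38.p6, plus strand) are shown because Klk10 and Klk13 differed in the opposite direction to Klk7, and Klk11 lies between them. Capitals mark CACCTG, an E-box read on both strands. The windows are chr7:43811174-43811293 for Klk7, chr7:43780934-43781053 for Klk10, chr7:43712447-43712566 for Klk13 and chr7:43774497-43774616 for Klk11.
Klk7: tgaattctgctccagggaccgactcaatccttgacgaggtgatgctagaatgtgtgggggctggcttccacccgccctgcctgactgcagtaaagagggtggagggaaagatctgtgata
Klk10: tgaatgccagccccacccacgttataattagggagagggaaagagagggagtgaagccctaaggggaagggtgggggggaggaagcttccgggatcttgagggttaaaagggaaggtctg
Klk13: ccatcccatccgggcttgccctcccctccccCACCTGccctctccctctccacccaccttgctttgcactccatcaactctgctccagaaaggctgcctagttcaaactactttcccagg
Klk11: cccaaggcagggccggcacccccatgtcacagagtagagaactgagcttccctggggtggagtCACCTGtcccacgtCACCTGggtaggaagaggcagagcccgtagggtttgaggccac
Klk13 holds 1 E-box and Klk11 holds 2 in these bases, and Klk7 and Klk10 hold none. In the full windows, from 250 bases before to 50 after the start, 3 of the 9 kallikrein genes (Klk13, Klk11 and Klk5) held CACCTG, beside 20.2% of 32851 mouse promoters. The AP-1 letters TGANTCA were in none of the 9 on either strand, and in 7.81% of all promoters. The nuclear receptor letters AGGTCA were likewise in none of the 9, and in 16.3% of all promoters. The octamer ATGCAAAT was in none of the 9 and in 1.74% of all. A TATA box, TATAAA, was in none of the 9 and in 13.6% of all. No searched motif contains another. A match is only a match of letters, and its absence says nothing of a factor.

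Klk7 was the most abundant kallikrein in NS. Per kilobase of transcript, its median level was 2107 CPM per kb (range 1762 to 3203), and Spink5 came next at 620 CPM per kb (432 to 820), with no overlap between them. Klk8 at 548 and Klk6 at 507 CPM per kb followed, and their ranges, 300 to 738 and 167 to 961, overlapped that of Spink5. The remaining medians per kb in NS were 264 for Klk10, 241 for Klk5, 118 for Klk9, 95 for Klk11 and 8.83 for Klk13. The range of each of these overlapped that of the next, down to Klk11 (53.9 to 154) and Klk13 (2.84 to 57.6), which met only at their ends. AK kept Klk7 at the top, with a median of 1587 CPM per kb, and Spink5, Klk6 and Klk8 next at 568, 525 and 412. In cSCC the order began with Klk10 at 504 CPM per kb, then Klk7 at 252, Klk8 at 206, Klk6 at 102 and Spink5 at 88.9, and these ranges overlapped one another.

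**Figure D1:**
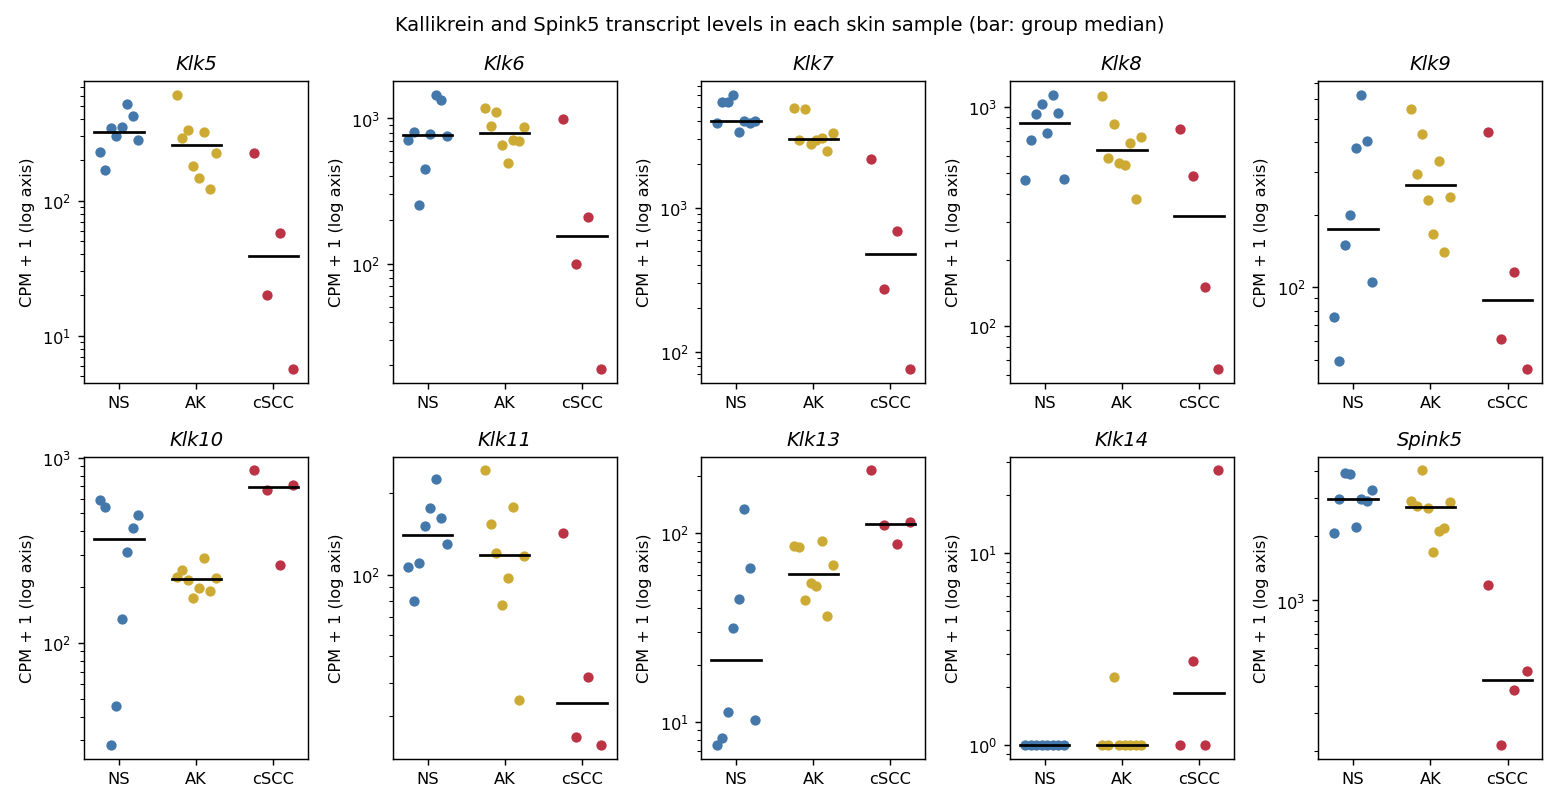
Each panel plots 1 gene, with CPM + 1 on a log axis for 8 NS, 8 AK and 4 cSCC samples and a bar at the group median. All 4 cSCC points lie below all NS and AK points for Klk7 and Spink5, and Klk14 is at or near 0 in all but cSCC replicate 21.

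Klk7, the chymotrypsin-like protease that cuts corneodesmosin, had 3339, 3992 and 6069 CPM as the lowest, median and highest level in NS, and 2487, 3008 and 4900 CPM in AK. The cSCC replicates 18, 19, 20 and 21 had 2191, 272, 683 and 74.3 CPM. All 4 cSCC samples were below all 16 others, with replicate 18 closest to them, while AK and NS overlapped. Klk7 fell in cSCC vs. NS by 2.44 on the log2 scale (SE 0.71, adjusted p = 0.0275, edgeR quasi-likelihood test), and in cSCC vs. AK by 2.02 (SE 0.66, adjusted p = 0.037). These comparisons share the cSCC samples. The call against NS was lost without cSCC replicate 19 (-2.16, adjusted p = 0.0702), without replicate 20 (-2.39, adjusted p = 0.0595) and without replicates 20 and 21 together (-1.85, adjusted p = 0.0739). The call against AK was also lost without replicates 20 and 21 (-1.42, adjusted p = 0.116), and in 9 of the 12 fits that left out 1 sample.

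Klk5, the trypsin-like protease that can activate itself and other kallikreins, had 169, 322 and 515 CPM as its lowest, median and highest level in NS and 122, 258 and 607 CPM in AK. In cSCC it had 224, 18.9, 56.9 and 4.63 CPM in replicates 18, 19, 20 and 21. Replicate 18 lay inside the NS and AK ranges, and the other three lay below both. The place of replicate 18 in these ranges depends on its low TMM factor of 0.5086, which raises its CPM. Its log2 fold change was -2.07 in cSCC vs. NS (SE 0.73, adjusted p = 0.0606) and -1.81 in cSCC vs. AK (adjusted p = 0.0871), neither past the threshold of 0.05.

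The other trypsin-like kallikreins, Klk6, Klk8 and Klk11, spread widely over the cSCC samples. Klk6 had 997, 98.4, 210 and 17.7 CPM in cSCC replicates 18 to 21, beside medians of 767 in NS and 795 in AK. Klk8, also called neuropsin, had 795, 486, 150 and 62.5 CPM, beside medians of 844 and 634. Klk11 had 142, 24.2, 41 and 22.5 CPM, beside 139 and 117. In each of the 3 genes replicate 18 was the highest cSCC sample and fell within the NS and AK ranges, and replicate 21 was the lowest. For Klk8 and Klk11 the place of replicate 18 in the NS range depends on its TMM factor of 0.5086. So does its rank above replicate 19 for Klk8. None of the 3 passed the test against either group. The log2 fold changes against NS were -1.27 for Klk6 (adjusted p = 0.262), -1.07 for Klk8 (adjusted p = 0.179) and -1.27 for Klk11 (adjusted p = 0.073). Without cSCC replicate 18, Klk5, Klk6, Klk8 and Klk11 joined Klk7 and Spink5 as lower than NS, and the same 6 genes and Klk9 were lower than AK. Klk9 itself ranged from 48.4 to 626 CPM in NS, 139 to 547 in AK and 44.7 to 440 in cSCC, and was not called with all samples (log2 fold change -0.55 and -0.77 against NS and AK).

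Klk10, first described as a gene of normal breast epithelium, ran the other way. It had 852, 672, 263 and 713 CPM in cSCC replicates 18 to 21, and 174, 221 and 287 CPM as the lowest, median and highest level in AK. Only cSCC replicate 20 fell within the AK range, and the other three were above its highest value. Klk10 was higher in cSCC than in AK by 1.63 on the log2 scale (SE 0.27, adjusted p = 0.00242), and this call was kept in each alternative fit. NS was far more spread, from 27.1 CPM in replicate 4 and 45 CPM in replicate 5 up to 593 CPM in replicate 1, and overlapped the cSCC range. Against NS the log2 fold change of 1.02 (SE 0.65) did not pass (adjusted p = 0.290).

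Klk13, a trypsin-like kallikrein with the lowest level of the detected genes in NS, had 6.51, 20.3 and 132 CPM as its lowest, median and highest level there. AK had 35.4, 59.9 and 89.1 CPM, and cSCC replicates 18 to 21 had 213, 109, 86.5 and 113 CPM. Of the cSCC samples, 3 were above all AK, and replicate 20 was just below the highest AK. NS replicate 7 alone, at 132 CPM, was inside the cSCC range. Klk13 was higher in cSCC than in AK by 1.15 (SE 0.28, adjusted p = 0.0116), a call lost without cSCC replicate 18 (0.74, adjusted p = 0.0619), with library size alone in place of TMM factors (0.76, adjusted p = 0.0717), with limma voom (0.94, adjusted p = 0.0774) and in 1 fit of all 20 samples (1.02, adjusted p = 0.198). The log2 fold change of 1.82 against NS (SE 0.70) missed the threshold (adjusted p = 0.0808), and passed without NS replicate 7 (2.48, adjusted p = 0.017).

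Klk14, a trypsin-like protease that can cut the receptor PAR2, was almost silent. It had 0 counts in all 8 NS, 1 count in AK replicate 12, 4 counts in cSCC replicate 19 and 157 counts (26 CPM) in cSCC replicate 21, which is the sample with the heart markers. The gene was left out of the tests by the filter on low counts, so 9 of the 10 genes were tested in each comparison. Of its 50-base windows, 21% also occur in other genes, so part of these counts may belong elsewhere.

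Spink5, the inhibitor gene on chromosome 18 (chr18:43963235-44022501 in GRCm38), had 2066, 2966 and 3922 CPM as its lowest, median and highest level in NS and 1674, 2717 and 4030 CPM in AK. In cSCC replicates 18 to 21 it had 1182, 211, 381 and 470 CPM. All 4 cSCC samples were below all 16 others. Spink5 fell by 2.38 in cSCC vs. NS (SE 0.48, adjusted p = 0.0057) and by 2.14 in cSCC vs. AK (SE 0.45, adjusted p = 0.00552) on the log2 scale. Both calls were kept in each alternative fit.

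Counted over the genes tested, AK vs. NS had 0 of 9 called in the edgeR quasi-likelihood test, where 4.64% of 11677 genes were called, 2.26% higher and 2.38% lower. None of the 9 was free of overlap between AK and NS, beside 0.394% of genes not overlapping and higher and 0.128% not overlapping and lower. At an unadjusted p below 0.05 there was 1 of 9, Klk7, with a log2 fold change of -0.42. DESeq2 also called 0, and limma voom called 1, Klk13, which was higher in AK by 1.60 (adjusted p = 0.0321). The log2 fold changes of the 9 genes ran from -0.56 (Klk10) to 0.74 (Klk13), with a median of -0.21 beside -0.04 for all genes. In cSCC vs. NS, 2 of 9 were called lower and 0 higher, where 7.65% of 12097 genes were lower and 11.7% higher. The same 2 genes, Klk7 and Spink5, did not overlap between the groups, beside 5.73% of all genes not overlapping and lower and 2.7% not overlapping and higher. In either direction, 19.3% of genes were called. In cSCC vs. AK, 2 of 9 were lower and 2 higher, beside 8.34% and 16% of 12032 genes, and 24.4% in either direction. Klk7 and Spink5 again did not overlap and were lower, beside 6.84% of genes, and none did so and was higher, beside 3.33%. With library size alone, 4 of 9 were lower and 0 higher in cSCC vs. NS, beside 11% of all genes lower and 5.17% higher. In cSCC vs. AK, 5 were then lower and 1 higher, beside 11.3% and 8.49%, so that calls over all genes also moved towards lower. The median log2 fold change of the 9 was -1.27 in cSCC vs. NS and -1.07 in cSCC vs. AK, and that of all genes was 0.14 and 0.17.

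**Figure D2:**
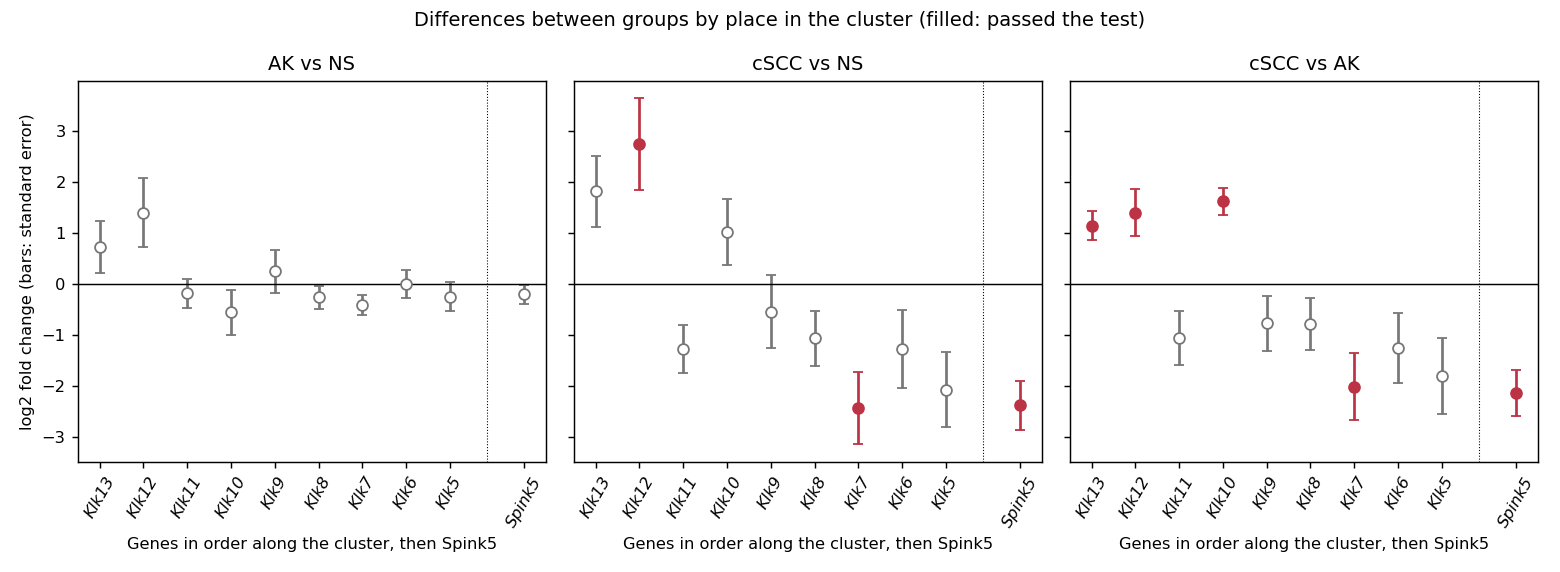
The log2 fold change of each tested gene is plotted with its standard error for the 3 comparisons, in the order of the genes on the chromosome, with Spink5 last and filled points for calls. In cSCC vs. AK the called genes are Klk13, Klk12 and Klk10 above 0 and Klk7 and Spink5 below 0, and Klk11, between Klk12 and Klk10, is at -1.07.

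Along the cluster, the genes that differed upwards were not all adjacent. Klk12, the neighbour of Klk13, was higher in cSCC than in NS by 2.75 (SE 0.90, adjusted p = 0.0464) and than in AK by 1.40 (SE 0.46, adjusted p = 0.0394). Its cSCC samples had 82, 23.7, 21.6 and 71.6 CPM, beside 0 to 35.1 CPM in NS and 4.82 to 33.6 in AK, so that replicates 19 and 20 overlapped both. Both calls were lost without cSCC replicate 18 (adjusted p = 0.0880 and 0.144), without replicate 21 (adjusted p = 0.0984 and 0.164), without replicates 20 and 21 together (adjusted p = 0.106 and 0.0985) and with library size alone (adjusted p = 0.0743 and 0.147). In all, the call was lost in 10 of 12 fits without 1 sample against NS and in 9 of 12 against AK. Klk11, which lies between Klk12 and Klk10, had log2 fold changes of -1.27 and -1.07 against NS and AK. Klk12 was the only 1 of 17 other kallikrein genes in the table with enough counts to test.

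The makeup of the kallikrein counts within a sample does not depend on the scaling between samples. Klk7 made up 62.6% ± 10.1 (SD, n = 8) of the counts of the 9 kallikreins in NS and 58% ± 3.74 (SD, n = 8) in AK. In cSCC replicates 18, 19, 20 and 21 it made up 37.4%, 15.6%, 42.5% and 6.89%, each below the lowest NS share of 47.7%. Klk10 and Klk13 together took 0.515% to 9.93% in NS and 3.29% to 6.65% in AK. In the same 4 cSCC samples they took 18.2% (95% Wilson interval 17.4 to 19), 44.8% (43.3 to 46.4), 21.8% (19.7 to 24) and 76.6% (75.6 to 77.6). Each cSCC share was thus above all 16 NS and AK shares, with replicates 19 and 21 highest. Klk10 and Klk13 are the genes that were called higher than AK in these same samples. Their larger share is partly set by that choice and is given as a description. Replicate 21, the sample with the heart markers, was the most extreme, and replicates 18 and 19, which have neither the heart nor the lung markers at such levels, also lay outside the NS and AK range. These intervals cover counting error only.

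**Figure D3:**
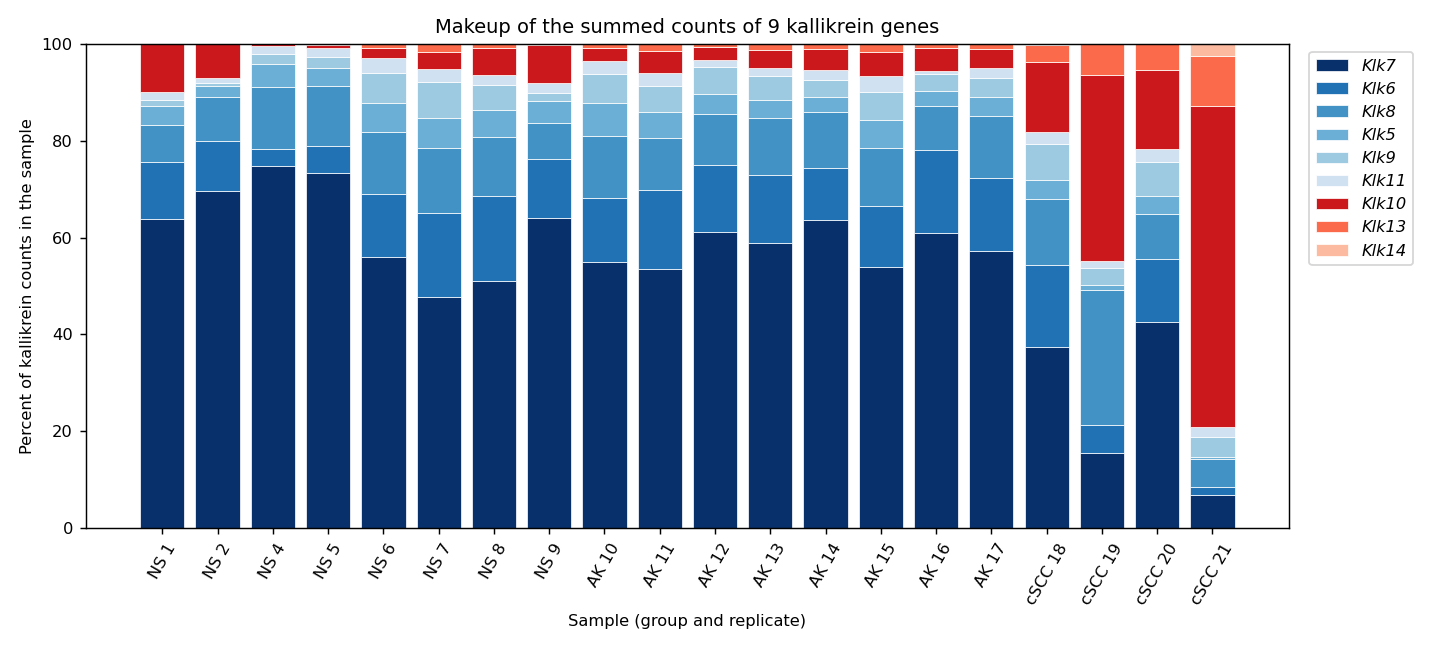
Each bar is 1 sample, and its parts are the percent of that sample's counts over the 9 kallikrein genes that each gene holds. Klk7 (darkest blue) holds 47.7% or more in all NS and AK bars, and Klk10 with Klk13 (reds) hold 18.2% to 76.6% in the cSCC bars.

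Per count of Klk7, Klk10 stood at 0.005 to 0.154 in NS and 0.0449 to 0.0941 in AK, and at 0.389, 2.47, 0.385 and 9.6 in cSCC replicates 18 to 21. Klk13 stood at 0.00135 to 0.0331 in NS and 0.00882 to 0.0292 in AK, and at 0.097, 0.399, 0.127 and 1.52 in cSCC. Neither ratio overlapped between cSCC and the other groups. Each sets a gene called higher than AK against one called lower in these same samples, so the ratios are descriptions and no separate test.

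Proteases and inhibitor were then set against each other within each sample. The 9 kallikreins summed to 1.85 to 2.92 counts per Spink5 count in NS (median 2.61) and 1.74 to 3.08 in AK (median 2). In cSCC replicates 18 to 21 they summed to 4.95, 8.24, 4.21 and 2.29. The first 3 of these were above all NS and AK values and replicate 21 was inside their range. Klk7 alone kept a ratio to Spink5 of 1.22 to 1.87 in NS and 1.02 to 1.77 in AK, and cSCC spanned 0.158 to 1.85, with replicate 21 lowest. Klk10 per Spink5 was 0.69 to 3.18 in cSCC and at most 0.287 in NS and 0.137 in AK, and Klk13 per Spink5 was 0.18 to 0.514 in cSCC and at most 0.0445 and 0.0424. As shares of all counts, the kallikreins summed to 0.65% to 0.881% in NS, 0.425% to 0.846% in AK and 0.0919% to 0.298% in cSCC, and Spink5 took 0.241% to 0.447%, 0.155% to 0.368% and 0.0241% to 0.0601%. Ratios are of counts, in which a longer transcript weighs more, and they are given as descriptions. Klk10, Klk13 and Spink5 were called in these same samples, so their ratios are no separate test.

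**Figure D4:**
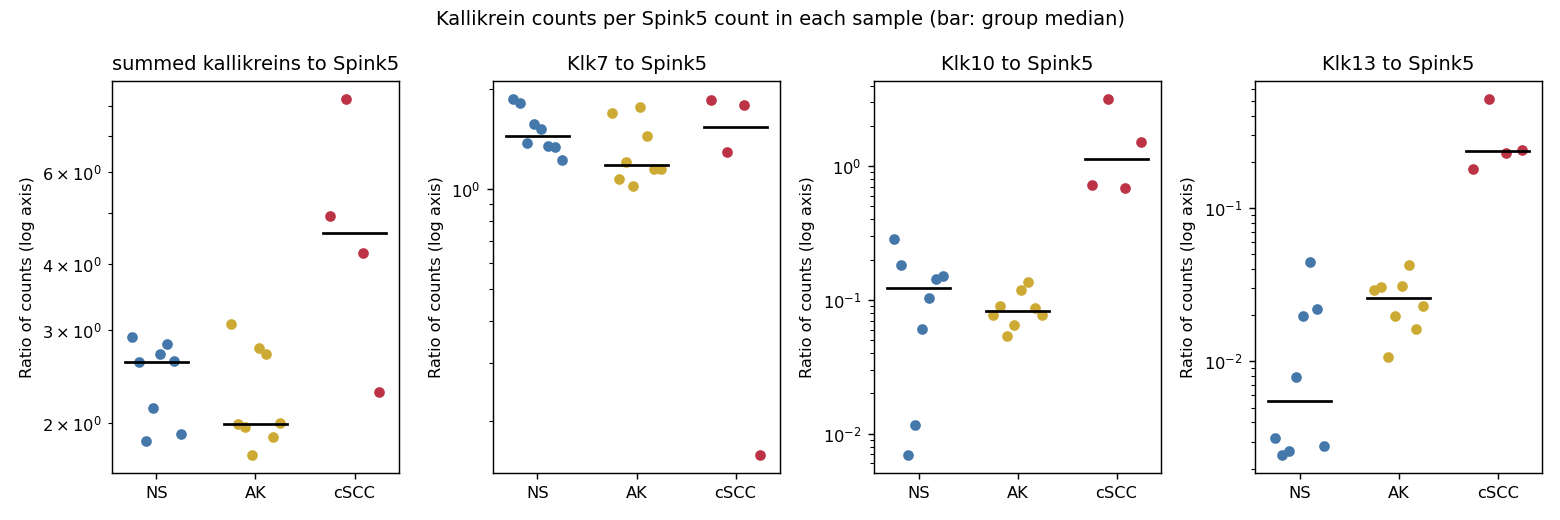
Counts of the 9 kallikreins in sum, and of Klk7, Klk10 and Klk13, are divided by the Spink5 count of the same sample, on log axes, with a bar at the group median. Klk10 and Klk13 per Spink5 are above all NS and AK points in the 4 cSCC samples, and the Klk7 ratio overlaps in all but cSCC replicate 21.

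Other genes of the shedding pathway were taken from 3 lists. Their counts stand beside 11.7% of all genes called higher and 7.65% lower in cSCC vs. NS. In cSCC vs. AK these shares were 16% and 8.34%, and in AK vs. NS 2.26% and 2.38%. Of the other epidermal proteases, 1 of 13 tested rose and 5 fell in cSCC vs. NS, with a list median log2 fold change of -0.96. Those that fell were the channel-activating protease Prss8 (-1.93), Prss27 (-1.35), Tmprss13 (-2.40), Tmprss4 (-1.57) and Asprv1 (-2.67), the protease that processes filaggrin. Plau, the urokinase gene, rose (2.31), from 0 to 4.35 CPM in NS to 1.32 to 19.8 CPM in cSCC, and the groups overlapped. The floor of 3 counts was 0.478 to 1.69 CPM in NS, so the rise of Plau rests partly on levels near the floor. In cSCC vs. AK, 1 of 12 rose (Furin, a proprotein convertase, 1.64) and 3 fell (Tmprss13, Tmprss4 and Asprv1), with a list median of -0.76. In AK vs. NS, Ctsc, the cathepsin C gene, rose (0.71), as 1 of 12 tested, and none fell, with a list median of -0.50. The other protease inhibitors had 0 of 7 higher and 3 lower in cSCC vs. NS. These were Cst6 (-4.83), an inhibitor of cysteine cathepsins, Serpina12 (-3.48), the vaspin gene whose product inhibits KLK7, and Spint1 (-1.24), an inhibitor of matriptase. Cst6 and Serpina12 also fell in cSCC vs. AK (-2.89 and -2.80), as 2 of 7, and Cst6 alone fell in AK vs. NS (-1.94), as 1 of 7. With cSCC replicates 20 and 21 left out, of the proteases and inhibitors Prss27 (adjusted p = 0.0906) was no longer called against NS, and Tmprss4, Asprv1 and Serpina12 (adjusted p = 0.218, 0.0664 and 0.0951) were no longer called against AK. Plau was not called against NS without replicate 19 (adjusted p = 0.213) or without replicate 20 alone (adjusted p = 0.0833). Without replicate 19, Spint1 (adjusted p = 0.0508) and Prss27 were not called against NS either, nor was Serpina12 against AK. Leaving out replicate 20 alone lost Tmprss4 and Serpina12 against AK. Leaving out replicate 21 alone lost Prss27 against NS and Tmprss4 against AK. No call of these lists was lost without replicate 18. The list medians were -1.14, -0.56 and -0.02 in cSCC vs. NS, cSCC vs. AK and AK vs. NS.

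Among 8 genes, which are kallikrein substrates and 1 receptor, 1 rose and 3 fell in cSCC vs. NS (list median -1.36). In cSCC vs. AK, 1 rose and 4 fell (list median -1.63). Of all genes, 11.7% were higher and 7.65% lower in cSCC vs. NS, and 16% and 8.34% in cSCC vs. AK. Dsg1a, a desmosomal cadherin that kallikreins cut, fell in both (-3.79 and -3.82 on the log2 scale), as did Flg, the filaggrin gene (-4.41 and -4.19). Flg is also counted among the suprabasal keratinocyte markers. F2rl1, which encodes PAR2, the receptor that kallikreins switch on, also fell in both (-4.19 and -2.76). Dsg1b, a related cadherin, was the fourth that fell in cSCC vs. AK (-1.20). Il1b, whose precursor KLK7 can cut, rose in both (5.24 and 4.03). With cSCC replicates 20 and 21 left out, the 4 calls against NS were kept, and those of F2rl1 (adjusted p = 0.192) and Dsg1b (adjusted p = 0.204) against AK were lost. Both were also lost against AK without replicate 19, 20 or 21 alone. F2rl1 stood at 0 to 2.08 CPM in cSCC, where the floor of 3 counts was 0.496 to 3.41 CPM. Its cSCC fold changes therefore rest on levels near the floor. In AK vs. NS, where 2.38% of all genes were lower, F2rl1 fell (-1.37) and no other gene of the 8 was called. The list median was -0.09.

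**Figure D5:**
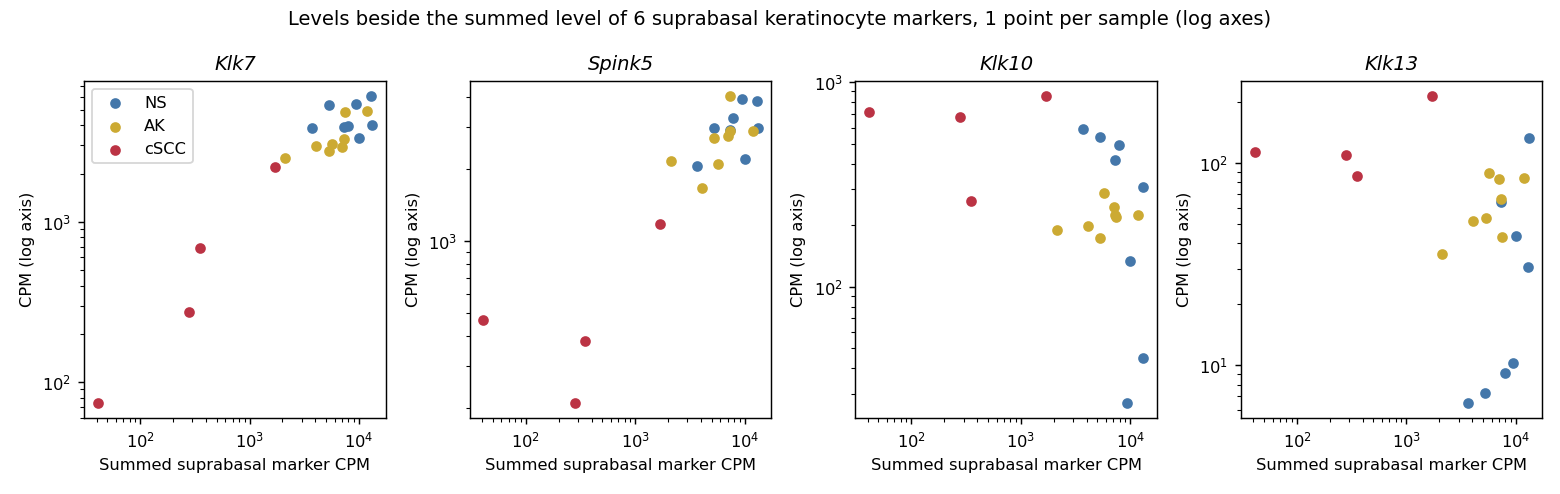
Each point is 1 sample, with the summed CPM of 6 suprabasal keratinocyte markers on the x axis and the CPM of the gene on the y axis, both log axes. The cSCC points lie at the low left for Klk7 and Spink5, and at low marker levels but not at low gene levels for Klk10 and Klk13.

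Markers of some cell types differed between these groups. With all samples, none of the leukocyte or adipocyte markers tested was called in the 3 comparisons. Of 6 fibroblast markers, 1 was called higher in cSCC vs. AK and 0 in cSCC vs. NS. Over all genes, 11.7% were called higher and 7.65% lower in cSCC vs. NS, and 16% and 8.34% in cSCC vs. AK. In AK vs. NS these shares were 2.26% and 2.38%. Of the 6 suprabasal keratinocyte markers, 4 fell in cSCC vs. NS and 4 in cSCC vs. AK, and 1 fell in AK vs. NS. With replicates 20 and 21 left out, 3 fell against NS and 2 against AK. Klk7 was lowest in cSCC replicate 21, the sample lowest in these markers, and highest among cSCC in replicate 18, the sample highest in them. Spink5 did not follow that order at its low end, since its lowest level was in replicate 19. Of the 6 basal keratinocyte markers, none was called in any of the 3 comparisons by the edgeR quasi-likelihood test. With replicates 20 and 21 left out 2 of the 6 were higher than in AK, and without replicate 18 2 were lower than in AK and 1 lower than in NS. All 4 sebocyte markers tested fell in both cSCC comparisons, to 1.82 to 20.8 CPM in sum from 149 to 1068 in NS, with Awat2 at 0 in all cSCC. Mc5r and Mogat2 of that list had too few counts to test. Mc5r was also at 0 in all cSCC, but stood at 7.82 CPM or less in NS. All 5 endothelial markers rose in both cSCC comparisons, to 62.5 to 428 CPM from 18.7 to 60 in NS. Replicate 21, with the heart markers, had the 428 CPM and replicate 20, with the lung markers, 154 CPM, and all 5 calls were lost in both comparisons when these were left out (adjusted p of 0.132 or above). The part of these cells in the kallikrein and Spink5 differences was not tested. With replicates 20 and 21 left out together, Spink5 stayed lower than both groups and Klk10 and Klk13 stayed higher than AK. Klk7 was then called against neither group.

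The genes whose level ran most like that of Spink5 over the 20 samples, among 10811 compared by Pearson's r of log2 CPM, were Skint11 (r = 0.97), Elovl4 (r = 0.97), Abca12 (r = 0.97), Nfe2l3 (r = 0.96) and Grhl1 (r = 0.96). Elovl4 lengthens the fatty acids of barrier lipids, Abca12 carries lipids into lamellar granules, and Grhl1 is a transcription factor of the epidermis. Over the 16 NS and AK samples, r was 0.89 for Skint11, 0.58 for Elovl4, 0.628 for Abca12, 0.693 for Nfe2l3 and 0.685 for Grhl1. The likeness of all but Skint11 thus drew much on the distance between cSCC and the rest. For the mean of the 10 genes the nearest were Wfdc5 (r = 0.94), 2010109I03Rik (r = 0.94), Lgals7 (r = 0.93), Ebp (r = 0.92) and Eif1ad (r = 0.92), and all 5 had r of 0.83 or above over the 16 samples. Lgals7 encodes a galectin of stratified epithelia, and Ebp acts in sterol synthesis. The samples share groups and scaling, so these values are descriptions.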

How the data were processed

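The authors trimmed reads, aligned them and deposited raw counts per gene symbol for the 20 samples, with no normalization. The submitters' processing notes list Trimmomatic 0.36, HISAT2 2.0.5 and featureCounts 1.5.2 and name human and mouse builds, of which the mouse one is older than GRCm38, the build the study's methods name together with StringTie. Which made the counts, and the strand setting, are not given in the sources used here. The labels describe daily irradiation, and the study's methods another schedule.

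Samples were grouped by their labels. Each comparison used only its own samples, genes kept by filterByExpr, TMM factors and edgeR 4.0.16 quasi-likelihood tests in R 4.3.3, fitted over all genes kept. A gene was called when its Benjamini-Hochberg adjusted p-value was below 0.05 and its fold change passed the study's limits of 1.5 (higher) or 0.67 (lower). The SE is the log2 fold change divided by the square root of F. The procedure was tested on simulated data. Alternatives were other scalings and filters, DESeq2 1.42.0, limma 3.58.1 (voom with sample weights), 1 fit over 20 samples, and leaving samples out. Shares have 95% Wilson intervals. Gene positions came from GENCODE for GRCm38 and promoters from RefSeq for GRCm38.p6, and all 9 kallikreins were matched there. The 10 genes and the lists were chosen with earlier results of these data known. All 10 are named, with Klk12, and from the 3 pathway lists at most 6 called genes per list and comparison, those with the largest change, are named.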

Additional observations from a re-analysis of the deposited data

Results flagged for a closer look

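Klk14 in AK replicate 12 stood at 1.26 CPM, far from the other 7 AK samples, which were all at 0. The value rests on 1 count, which is under the floor of 3 counts. It was the only sample to stand apart in this way among 29 sets of samples examined (1 gene in 1 group each), and chance flags about 1 in 20 of such sets.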

How the results depend on the processing

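No paired analysis was possible because the replicate numbers in the labels differ between all samples, so the groups share none. Spink5 in both cSCC comparisons and Klk10 in cSCC vs. AK kept their direction and call under all alternatives tried, with log2 fold changes of -3.04 to -2.01 (Spink5 vs. NS), -2.86 to -1.73 (Spink5 vs. AK) and 1.22 to 2.07 (Klk10 vs. AK). Klk7 was lower under all alternatives (-3.69 to -1.85 vs. NS, -3.27 to -1.42 vs. AK) but was not called in the fits named with its levels. The scaling shifted all genes: the median log2 fold change over all genes was, for AK vs. NS and then for cSCC against NS and against AK, -0.04, 0.14 and 0.17 with TMM factors, -0.13, -0.17 and -0.09 with library size alone, and -0.12, 0.62 and 0.67 when scaled on 8 epidermal genes. Some of those 8 genes were themselves called in the edgeR test, 1 higher and 1 lower in cSCC vs. NS and 1 higher and 3 lower in cSCC vs. AK.

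Of the 9 genes tested, AK vs. NS had 1 called higher by limma voom, beside 4.46% of all genes. In cSCC vs. NS, 4 were called lower with library size alone, with DESeq2, with limma voom, in 1 fit of 20 samples and by unadjusted p, and 1 with cSCC replicates 20 and 21 left out. Of all genes 11%, 10.3%, 4.46%, 11.6%, 13.3% and 6.46% were lower in these fits, beside 7.65% in the edgeR test. There 1 was called higher (in place of 0) with DESeq2, without a filter on low counts (Klk14, then the tenth gene tested), in 1 fit of 20 samples, with the epidermal scaling and by unadjusted p, where 12.3%, 8.7%, 13.9%, 18.1% and 20.2% of all genes were. In cSCC vs. AK, 1 was called higher (in place of 2) with library size alone, limma voom and 1 fit of 20 samples, where Klk13 was not called (adjusted p = 0.0717, 0.0774 and 0.198) and 8.49%, 6.03% and 16.6% of all genes were higher. There 5 were called lower with library size alone, 4 with limma voom, and 1 with cSCC replicates 20 and 21 left out, beside 11.3%, 4.52% and 5.9% of all genes. Leaving out 1 sample at a time gave 1 to 6 lower and 0 to 1 higher in cSCC vs. NS, beside 5.86% to 10.2% and 6.97% to 15% of all genes. In cSCC vs. AK it gave 1 to 7 lower and 1 to 2 higher, beside 6.48% to 13.1% and 6.9% to 18.3%. The highest counts of lower genes came without cSCC replicate 18, where 10.2% and 13.1% of all genes were lower, up from 7.65% and 8.34%. The fits of Klk12 under these alternatives, and of the listed genes without cSCC samples, were chosen after seeing the data. The cause of these differences was not tested.

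Klk6 in AK vs. NS, near 0 in the edgeR test, changed sign with library size alone (-0.08), upper quartile factors (-0.07), DESeq2 (-0.005), no filter on low counts (-0.006) and epidermal scaling (-0.087), and ran from -0.13 to 0.17 when 1 sample was left out. Klk10 in AK vs. NS was 0.39 with limma voom, and Klk9 in cSCC vs. NS was 0.03 with cSCC replicates 20 and 21 left out. The highest floor of 3 counts was 3.78 CPM, in AK replicate 12, and the 1 count of Klk14 there (1.26 CPM) lies below it.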
